A study of Mus musculus with 12 samples.

Results

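A set of 10 genes that mark the surface and identity of tissue macrophages were followed through 12 RNA sequencing libraries from mouse fetal liver at midgestation (E14.5). The genes were fixed by name, as Adgre1, Csf1r, Cd68, Siglec1, Timd4, Cx3cr1, Mrc1, Clec4f, Cd5l and Fcgr1, and matched to Ensembl identifiers through the GENCODE M21 annotation of GRCm38. All 10 were found in both count tables, which share 32210 identifiers, and all 10 passed the filter on low counts in each table. Every embryo carried Jag1 f/f, that is, floxed alleles of the Notch ligand gene Jag1, and either lacked Vav-Cre (Cre negative) or carried it (Cre positive), a transgene whose Vav regulatory elements drive Cre in blood-forming cells. The gate for hematopoietic stem cells (HSCs) was DAPI- CD45+ Lin- cKit+ Sca1+ CD48- CD150+, and the labels of these libraries also name the C57BL/6 strain and call the 2 genotypes WT and Mutant. Macrophages were sorted on CD169, the protein encoded by Siglec1, which is itself one of the 10 genes. Each of the 4 groups had 3 libraries. The labels do not say whether these came from separate embryos or pools, so that p-values measure only the spread between libraries.

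Macrophages of the fetal liver sit at the centre of erythroblastic islands, take up the nuclei that maturing red cells expel and clear dying cells. They depend on CSF1R, a receptor tyrosine kinase that binds the cytokines CSF1 and IL-34. Of the other genes, Siglec1 (CD169) and Mrc1 (the mannose receptor CD206) bind glycans, as does Clec4f, a lectin of Kupffer cells. Timd4 (TIM-4) is a receptor for phosphatidylserine on dying cells, Fcgr1 (CD64) is the high-affinity receptor for IgG, and Cx3cr1 is the receptor for the chemokine CX3CL1. Adgre1 encodes the adhesion receptor F4/80, Cd68 a glycoprotein of late endosomes and lysosomes, and Cd5l a secreted scavenger protein also called AIM. Mrc1 is not restricted to macrophages, since liver sinusoidal endothelium makes it as well.

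The bases upstream of 4 of these genes are shown because the values below set them apart: Cd5l, Timd4 and Fcgr1 were, with Adgre1, the genes that were lowest of 6 libraries in the low library of each sort, while Mrc1, like Siglec1 and Cx3cr1, was lowest in neither of these libraries and varied least within each macrophage group except for Adgre1 in the Cre positive one. The sequences are RefSeq promoter windows of GRCm38.p6, written 5′ to 3′ on the strand of the gene and ending before its first exon in the GENCODE model. Capitals mark GAGGAA, a purine-rich box of the kind bound by the myeloid ETS factor PU.1 (read as TTCCTC on the other strand), and TATAA, each searched on both strands with no overlap between them in these windows. Cd5l lies on the plus strand at chr3:87357631-87357880 and Timd4 on the plus strand at chr11:46810549-46810798. Fcgr1 lies on the minus strand at chr3:96293970-96294219 and Mrc1 on the plus strand at chr2:14229164-14229391.
Cd5l: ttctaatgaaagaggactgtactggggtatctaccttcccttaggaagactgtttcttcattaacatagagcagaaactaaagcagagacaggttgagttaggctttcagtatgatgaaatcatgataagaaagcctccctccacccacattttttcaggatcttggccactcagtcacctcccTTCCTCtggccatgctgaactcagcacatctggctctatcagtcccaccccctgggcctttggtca
Timd4: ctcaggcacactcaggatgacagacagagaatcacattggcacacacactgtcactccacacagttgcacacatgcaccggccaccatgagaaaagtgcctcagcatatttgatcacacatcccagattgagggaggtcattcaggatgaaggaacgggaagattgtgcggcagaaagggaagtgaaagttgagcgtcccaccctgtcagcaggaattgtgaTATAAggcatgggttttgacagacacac
Fcgr1: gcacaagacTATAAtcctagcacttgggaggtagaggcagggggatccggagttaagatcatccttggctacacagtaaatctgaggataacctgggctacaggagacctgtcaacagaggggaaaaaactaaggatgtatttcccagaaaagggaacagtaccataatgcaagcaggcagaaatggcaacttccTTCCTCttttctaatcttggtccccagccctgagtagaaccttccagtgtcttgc
Mrc1: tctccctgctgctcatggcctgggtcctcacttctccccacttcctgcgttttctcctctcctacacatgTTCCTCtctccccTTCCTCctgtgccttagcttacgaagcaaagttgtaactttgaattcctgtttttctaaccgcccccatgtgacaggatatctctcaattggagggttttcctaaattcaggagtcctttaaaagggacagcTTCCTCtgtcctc

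GAGGAA was present in 4 of the 6 members' windows that lay outside the gene model (Cd68, Cd5l, Fcgr1 and Mrc1), with 3 matches upstream of Mrc1. Among all 32851 RefSeq windows of 250 bases, 23.3% held it. TATAA was present upstream of Timd4 and Fcgr1, against 22.8% of all windows. The promoter table had no entry for Adgre1 or Siglec1, no sequence is shown for Csf1r, and the window of Cx3cr1 lay inside its GENCODE gene model and was not searched. A match is a run of letters and no evidence of binding.

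Depth and content differed between the libraries before any genotype was compared. Counted reads numbered 51982064 to 77463770 in HSC libraries, 17230019 to 24658205 in Cre negative macrophage libraries and 2602934 to 5366990 in Cre positive ones, so that 3 counts, taken as the detection floor, stood at 0.136 to 0.171 CPM in Cre negative and at 0.513 to 1.06 CPM in Cre positive macrophage libraries. CPM (counted reads scaled to a common total) were taken on library sizes scaled by edgeR's TMM method, and these floors cover counting error only. The targeted gene Jag1 measured 51.7, 20.7 and 25.9 CPM in Cre negative and 0, 10.4 and 6.67 CPM in Cre positive macrophage libraries. In the HSC sort it measured 6.52, 6.86 and 1.15 CPM without Cre and 10.5, 0 and 19.4 CPM with the Cre positive label, so that Jag1 did not separate the labels there. Both sorts held transcripts listed here as markers of other cells, and which cells made them was not tested. The 10 markers of sinusoidal endothelium took 0.683% to 1.52% of macrophage reads and 0.583% to 1.24% of HSC reads. The 13 macrophage markers took 0.0396% to 0.381% and 0.0565% to 0.205%. In the macrophage sort Cre negative replicate 1 stood apart, and the fitted values of the 10 genes and of the marker lists are also given without it.

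In the macrophage libraries 9 of the 10 genes had lower fitted levels in Cre positive than in Cre negative libraries, and Mrc1 had the higher one. None of the 10 passed edgeR's quasi-likelihood test at a Benjamini-Hochberg adjusted p under 0.05 (0.0% of 17806 genes tested did), and 2, Adgre1 and Cx3cr1, stood at an unadjusted p under 0.05 on the lower side, where 4.91% of all genes did, and 0 on the higher side, where 0.511% did. With DESeq2, which called 0.303% of the genes tested, 0 of the 10 passed. The median log2 fold change of the 10 genes was -1.13 against -0.16 over all genes tested, of which 56.1% had the lower fitted level. That median of 10 was -1.63 when Cre negative replicate 1 was left out, -1.85 when Cre positive replicate 3 was and -0.76 when Cre negative replicate 2 was, with 9 of the 10 on the lower side each time. No member separated the genotypes without overlap, against 11.8% of all genes on the lower side and 2.27% on the higher side. The mixture of cells in a bulk library means that fewer macrophages and less RNA per macrophage cannot be told apart. The 10 endothelial markers all had the higher fitted level in Cre positive libraries (median log2 fold change 0.27, and 0.57 without Cre negative replicate 1, none passing in either fit), taking 0.683% to 1.41% of reads in Cre negative and 1.14% to 1.52% in Cre positive libraries; their part in the result was not tested.

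**Figure D1:**
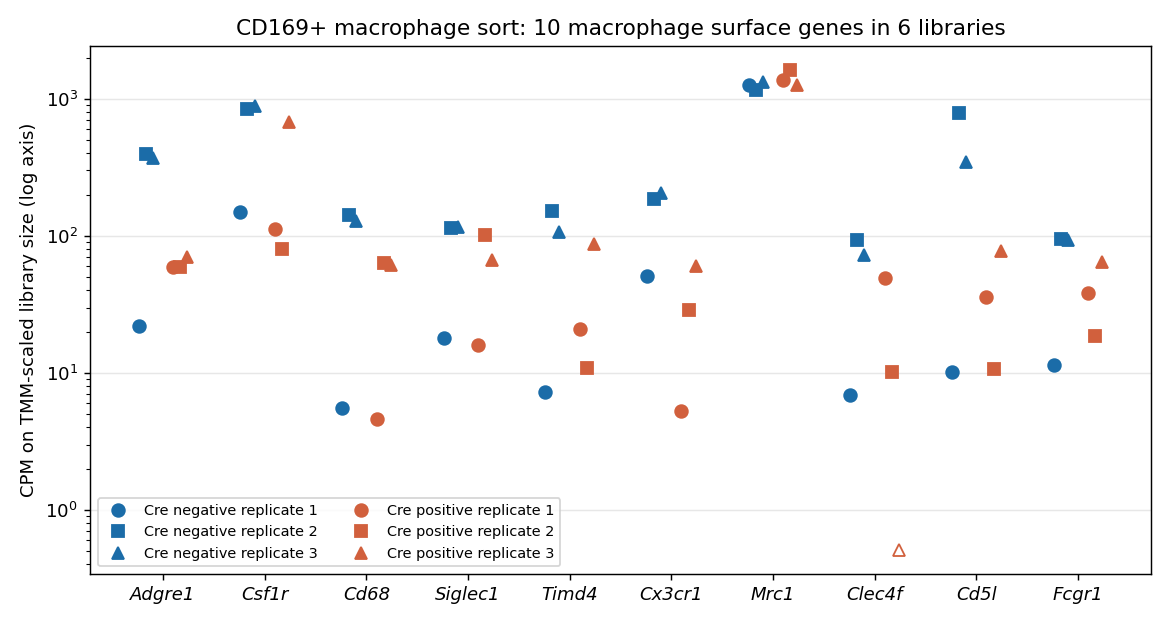
CPM of the 10 genes in the 6 macrophage libraries on a log axis, with 1 point per library, Cre negative in blue and Cre positive in orange. The open triangle is Clec4f in Cre positive replicate 3, which had 0 reads and is drawn at its floor of 0.513 CPM; Cre negative replicate 1 (blue circles) lies far below the other blue points in every gene except Mrc1.

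The F4/80 gene was nearly even across the Cre positive libraries. Adgre1 (ENSMUSG00000004730, chromosome 17, 57358691 to 57483527) measured 21.9, 396 and 368 CPM in Cre negative replicates 1 to 3 and 59.1, 59.2 and 69.6 CPM in the Cre positive replicates. The Cre positive libraries thus lay within 1.18-fold of each other, below 2 of the Cre negative libraries and above the other. The median gene tested, at any level, ranged 38.3-fold in that group. A gene with 0 reads in a library counted there as an unbounded range, so scarce genes widen that figure. Cre negative libraries averaged 262 ± 208 CPM and Cre positive ones 62.6 ± 6.05 CPM (SD, n = 3 each). The log2 fold change was -2.06 (SE 0.79, edgeR quasi-likelihood unadjusted p = 0.0261, adjusted p = 0.773). Without Cre negative replicate 1 it was -2.56 (SE 0.38) and Adgre1 passed the same test (adjusted p = 0.0383), one of 5 genes called among 18617, or 0.0269%. That library was singled out for its low values of these genes, Adgre1 included, so this pass is no independent support. Leaving out any other single library gave adjusted p-values of 0.497 or more in the same test. Adgre1 also passed when no filter on low counts was applied (adjusted p = 0.0119), and its adjusted p ranged from 0.0119 to 1.00 over the alternatives.

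The receptors for cytokine and chemokine differed from each other in Cre positive replicate 3. Csf1r (ENSMUSG00000024621, chromosome 18, 61100598 to 61132149) measured 149, 842 and 881 CPM in Cre negative and 112, 79.9 and 678 CPM in Cre positive libraries. Cre positive replicate 3 was thus close to the 2 high Cre negative libraries, and Cre negative replicate 1 close to the 2 low Cre positive ones. The log2 fold change was -1.10 (SE 1.05), -1.51 (SE 1.00) without Cre negative replicate 1 and -2.74 (SE 0.71, edgeR adjusted p = 0.347) without Cre positive replicate 3. Cx3cr1 (ENSMUSG00000052336, chromosome 9, 119901616 to 120069879) measured 51.3, 187 and 206 CPM in Cre negative and 5.30, 28.7 and 60.2 CPM in Cre positive libraries. The groups overlapped by a single pair, Cre positive replicate 3 above Cre negative replicate 1. Its log2 fold change was -2.23 (SE 0.74, edgeR unadjusted p = 0.00889, adjusted p = 0.773), the smallest unadjusted p of the 10, and -2.58 (SE 0.72, adjusted p = 0.541) without Cre negative replicate 1. Cx3cr1 passed without Cre positive replicate 3 (-3.17, adjusted p = 0.0167, 34 of 24500 genes or 0.139% called) and with the replicate number as a block (-2.56, adjusted p = 0.0371, 13 of 17806 genes or 0.073% called), with adjusted p-values of 0.0167 to 1.00 over the alternatives. Cre positive replicate 3 had the highest Cx3cr1 of its group, so the pass without it is no independent support. The replicate numbers were not taken to pair libraries, so the pass with the block is none either. Exons of both genes overlap those of another gene on the opposite strand, Hmgxb3 for Csf1r and Gm33858 for Cx3cr1, and the library kit does not mark strand.

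The receptors for dying cells and antibody varied by more within the genotypes than between them. Timd4 (ENSMUSG00000055546, chromosome 11, 46810800 to 46844332) measured 7.23, 153 and 106 CPM in Cre negative and 20.9, 10.8 and 87.0 CPM in Cre positive libraries. Cre negative replicate 1 was the lowest of the 6 and the other 2 Cre negative libraries the highest. The log2 fold change was -1.16 (SE 0.95), -1.65 (SE 0.74, edgeR adjusted p = 0.616) without Cre negative replicate 1 and -2.53 (SE 0.91, edgeR adjusted p = 0.566) without Cre positive replicate 3. Fcgr1 (ENSMUSG00000015947, chromosome 3, 96282909 to 96293969) measured 11.3, 95.6 and 92.5 CPM in Cre negative and 38.5, 18.6 and 65.0 CPM in Cre positive libraries, with the same lowest library. Its log2 fold change was -0.71 (SE 0.76). Leaving out Cre negative replicate 1 gave -1.16, leaving out Cre positive replicate 3 gave -1.25, and the value was -0.37 to -0.41 without Cre negative replicate 2, Cre negative replicate 3 or Cre positive replicate 2.

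Of the 10 genes Cd5l had the widest range within the Cre negative group. It (ENSMUSG00000015854, chromosome 3, 87357881 to 87371073) measured 10.1, 783 and 345 CPM in Cre negative and 36.1, 10.6 and 77.0 CPM in Cre positive libraries. Within the Cre negative group the highest library stood 77.7-fold above the lowest, where the median gene tested in this sort had a range of 3.02-fold. The log2 fold change was -3.20 (SE 1.57, edgeR unadjusted p = 0.0936, adjusted p = 1.00), and -3.72 (SE 0.70, adjusted p = 0.330) without Cre negative replicate 1.

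The glycan receptors differed from each other in their low libraries. Siglec1 (ENSMUSG00000027322, chromosome 2, 131069220 to 131086765) measured 17.9, 113 and 115 CPM in Cre negative and 15.9, 101 and 66.5 CPM in Cre positive libraries. Both genotypes thus held 1 library well below the other 2, and the log2 fold change was -0.43 (SE 0.71). Leaving out 1 library gave values from -0.05 (without Cre positive replicate 1) to -1.01 (without Cre positive replicate 2), with -0.86 without Cre negative replicate 1. Clec4f (ENSMUSG00000014542, chromosome 6, 83644542 to 83656187) measured 6.95, 93.1 and 72.6 CPM in Cre negative and 49.2, 10.2 and 0 CPM in Cre positive libraries, where the floor of the library at 0 was 0.513 CPM. The log2 fold change was -1.55 (SE 1.48), -2.04 (SE 1.48) without Cre negative replicate 1 and -3.56 (SE 2.24) without Cre positive replicate 1, the highest of the Cre positive libraries.

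Mrc1 (ENSMUSG00000026712, chromosome 2, 14229392 to 14332057) measured 1264, 1154 and 1330 CPM in Cre negative and 1382, 1625 and 1259 CPM in Cre positive libraries. It varied by 1.15-fold within the Cre negative and by 1.29-fold within the Cre positive libraries, and Cre negative replicate 1 was in no way apart. The log2 fold change was 0.19 (SE 0.25, edgeR unadjusted p = 0.469), and 0.24 (SE 0.23) without that library. Cd68 (ENSMUSG00000018774, chromosome 11, 69664213 to 69666153) was the reverse case, with 5.58, 143 and 128 CPM in Cre negative and 4.60, 62.9 and 60.9 CPM in Cre positive libraries. Its low libraries were replicate 1 of both genotypes, and its log2 fold change was -1.10 (SE 1.09). It was -1.61 (SE 0.78) without Cre negative replicate 1 and -0.65 (SE 1.29) without Cre positive replicate 1.

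**Figure D2:**
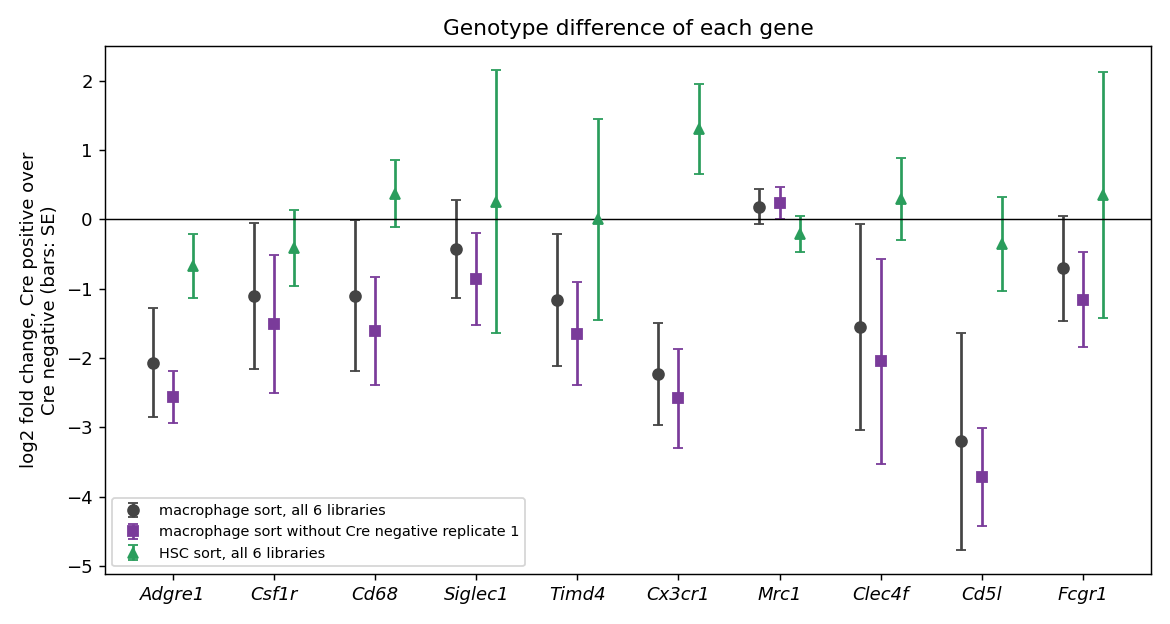
Fitted log2 fold change of each gene, Cre positive over Cre negative, with bars for the standard error. In the macrophage sort 9 genes lie below 0 with all 6 libraries and without Cre negative replicate 1, and Mrc1 lies just above 0; in the HSC sort the values lie on both sides of 0, with Cx3cr1 highest at 1.31.

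Cre negative replicate 1 of the macrophage sort stood apart in most of these genes. Its levels of 8 of the 10 genes lay more than 4-fold below both other Cre negative libraries, where 19.7% of all genes tested did, in a comparison of 1 library against 2 that has no test. Against the mean of the other 2 libraries it was 56.0-fold lower in Cd5l, 24.2-fold in Cd68, 17.9-fold in Timd4, 17.4-fold in Adgre1 and 11.9-fold in Clec4f. The deficits were smaller in Fcgr1 (8.30-fold), Siglec1 (6.38-fold), Csf1r (5.77-fold) and Cx3cr1 (3.82-fold), and there was none in Mrc1 (0.983-fold). Adgre1, Timd4, Cd5l and Fcgr1 were lower in this library than in every Cre positive library. The share of all genes that were so was not counted, so this is a description only. The other 2 Cre negative libraries lay above all 3 Cre positive libraries in 9 of the 10 genes, Mrc1 being the exception. Of all genes, 20.5% did so. Replicate 1 was set aside there for its low values of these same genes, so that count is no independent support. With replicate 1 included, no member separated the genotypes without overlap.

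Other transcripts of that library moved too. Of 32 further macrophage genes, 19 were more than 4-fold below both other Cre negative libraries, among them C1qb, a subunit of complement C1q (31.3 CPM against 728 and 549), and Spi1, which encodes PU.1 (6.32 CPM against 121 and 102). None of the 10 endothelial markers was, and 9 of them were above both, a count not made over all genes. The scavenger receptor gene Stab2 stood at 5033 CPM against 2413 and 2554. Hepatoblast markers took 0.397% of its reads and 0.0437% to 0.0438% in the other 2 Cre negative libraries, and the albumin gene Alb stood at 1678 CPM against 90.5 and 75.8. Stellate markers took 0.136% of its reads against 0.0150% and 0.0224%. The part of these transcripts in the low macrophage values was not tested. Its depth of 17230019 reads was not the lowest of the sort, and after each library was thinned to the depth of the shallowest it held 68 reads of Adgre1 where the other Cre negative libraries held 888 and 869 and the Cre positive ones 167, 159 and 206. The part of depth in its low values was not tested either.

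**Figure D3:**
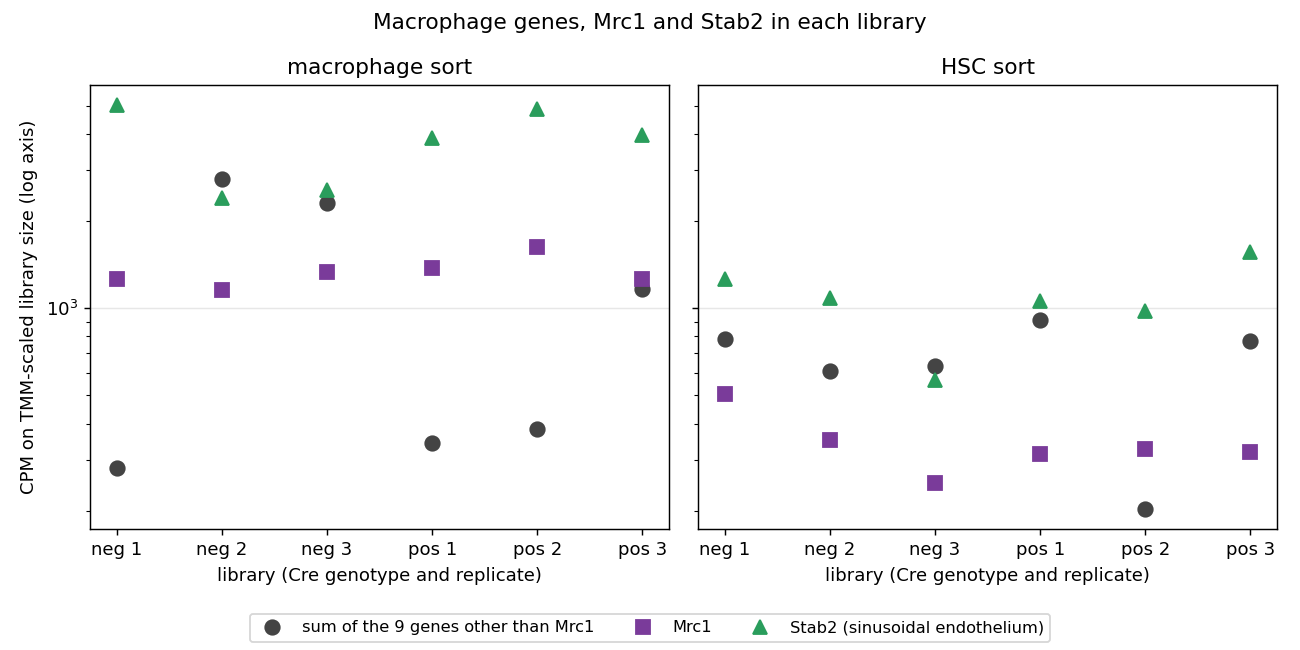
Summed CPM of the 9 genes other than Mrc1 (circles), Mrc1 (squares) and the endothelial gene Stab2 (triangles) in each library on a log axis. In the macrophage sort the sum ranged from 282 CPM in Cre negative replicate 1 to 2805 CPM in Cre negative replicate 2 while Mrc1 stayed between 1154 and 1625 CPM; in the HSC sort the sum was lowest in Cre positive replicate 2.

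Summed over the 9 genes other than Mrc1, the macrophage libraries held 282, 2805 and 2315 CPM (Cre negative) and 342, 382 and 1164 CPM (Cre positive). Cre negative replicate 1 and Cre positive replicates 1 and 2 thus lay below all others, and they fell on both sides of the genotype. Relative to Stab2 in the same library, the sum was 5.59%, 116% and 90.6% in Cre negative and 8.81%, 7.82% and 29.3% in Cre positive libraries. Of the summed CPM of all 10 genes, Mrc1 took 81.8%, 29.1% and 36.5% without Cre and 80.2%, 81.0% and 52.0% with it. The share of Mrc1 was thus above 80% in the same 3 libraries.

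Levels were ordered among the genes only after division by exon length, as CPM per kilobase. In Cre negative macrophage libraries Mrc1 (196 ± 13.9) and Cd5l (186 ± 190) had the highest means per kilobase, followed by Csf1r (108 ± 71.3), Adgre1 (80.9 ± 64.4), Cd68 (73.2 ± 59.9), Timd4 (40.8 ± 34.2), Cx3cr1 (32.8 ± 18.7), Fcgr1 (25.7 ± 18.5), Clec4f (23.3 ± 18.2) and Siglec1 (11.5 ± 7.80; SD, n = 3). Each neighbour in this order overlapped the next over the 3 libraries. In Cre positive libraries Mrc1 (223 ± 29.3) stood above every value of the next gene, Csf1r (50.2 ± 58.2), and Cx3cr1 (6.97 ± 6.11) had the lowest mean. Below Mrc1 the neighbours overlapped throughout.

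Across the 6 macrophage libraries, genes with a mean of at least 20 CPM were ranked by the likeness of their log2(CPM + 1) profile to that of Adgre1 and Csf1r, as a description over libraries that share depth and content differences. The 5 genes most like Adgre1, of 7134 searched, were Csk, Ptpn18, Sept9, Mpp1 and Ckb, with Pearson r of 0.979 to 0.988 (n = 6 libraries). The tyrosine kinase gene Csk measured 36.0, 106 and 102 CPM in Cre negative and 52.3, 61.6 and 57.3 CPM in Cre positive libraries. Those most like Csf1r were Gm2a, Gusb, Ticam2, Laptm5 and Spic, with r of 0.992 to 0.997 (n = 6 libraries). Spic, a transcription factor gene of red pulp macrophages, measured 2.05, 40.1 and 38.9 CPM in Cre negative and 2.12, 0.183 and 37.3 CPM in Cre positive libraries, with the same 3 low libraries as Csf1r.

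Partners of the 10 receptors showed no call either. Of 12 ligands, signalling chains and relatives, 8 had the lower and 4 the higher fitted level in Cre positive macrophage libraries (median log2 fold change -0.97, and -0.95 without Cre negative replicate 1), and 0 passed or stood at an unadjusted p under 0.05. Fcer1g, the signalling chain of the IgG receptor, measured 7.97, 222 and 230 CPM in Cre negative and 91.6, 49.5 and 16.6 CPM in Cre positive libraries. The CSF1R ligand genes were scarce, Csf1 at 0.365 to 26.1 CPM and Il34 at 0 to 10.8 CPM. The members of this list with the smallest p were Adgre5 (CD97, a relative of F4/80), at 129 ± 13.2 and 63.9 ± 34.0 CPM, Cre negative first, Sirpa, a receptor for CD47, at 402 ± 158 and 241 ± 46.8 CPM, and Adgre4 at 15.1 ± 8.19 and 0.784 ± 1.08 CPM (SD, n = 3 each). Of 31 further macrophage genes tested, 30 had the lower fitted level (median -1.07), 4 of them at an unadjusted p under 0.05, and 0 passed. The median was -1.51 without Cre negative replicate 1, where 0 passed, and -2.05 without Cre positive replicate 3, where 2 of 32 passed (Lgals3 and Aif1, named after their values were seen). The latter fit called 34 of 24500 genes (0.139%). Cre positive replicate 3 had the largest share of reads from this list in its group (0.652% against 0.290% and 0.295%). The passes without it are thus no independent support. Among the 4 genes was Trf (transferrin, also a hepatocyte product) at 1233, 215 and 208 CPM in Cre negative and 123, 63.2 and 154 CPM in Cre positive libraries. Its log2 fold change was -2.29 (SE 0.70), and -0.86 (SE 0.45) without Cre negative replicate 1, the library high in Alb. Another was the receptor tyrosine kinase gene Axl at 238 ± 164 and 68.4 ± 50.3 CPM (SD, n = 3 each), Cre negative first.

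The 10 genes were also counted in the HSC sort, whose gate asks for Lin- cells. There 4 of the 10 had the lower and 6 the higher fitted level in libraries labelled Cre positive (50.3% of all genes had the lower), the median log2 fold change was 0.13 against -0.00 over all genes, and 0 passed (0.0% of 13962 genes tested did). At an unadjusted p under 0.05 stood 0 of the 10, against 3.97% of genes on the lower and 2.42% on the higher side, and with DESeq2, which called 0.924% of the genes, 0 of the 10 passed. Every one of the 10 overlapped between the groups, where 9.33% of all genes lay lower and 6.37% higher without overlap.

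**Figure D4:**
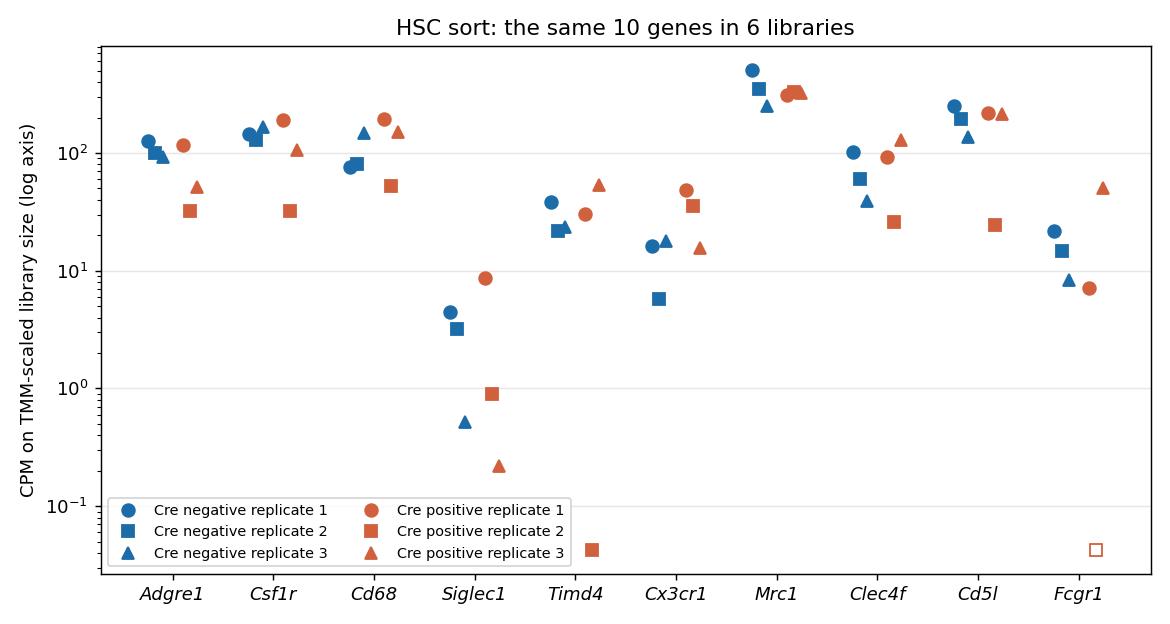
CPM of the same 10 genes in the 6 HSC libraries on a log axis, in the colours and symbols of the macrophage plot, with Fcgr1 in Cre positive replicate 2 (0 reads) drawn open at its floor of 0.0427 CPM. Orange squares, Cre positive replicate 2, are the lowest point in 7 of the 10 genes, and Siglec1 is the scarcest gene.

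One library labelled Cre positive, replicate 2, was the lowest of the 6 in 7 of the 10 genes, where it was the lowest for 18.9% of all genes tested. Fcgr1 had 0 reads there, with a floor of 0.0427 CPM, and measured 21.8, 14.6 and 8.31 CPM without Cre and 7.14 and 50.2 CPM in the other 2 labelled Cre positive. Timd4 had 3 reads there (0.0427 CPM) and measured 38.4, 21.5 and 23.5 CPM without Cre and 30.3 and 53.2 CPM in the other 2. The median of the other 5 libraries was 710-fold above that value, with a 95% exact Poisson interval of 243 to 3443 for counting error only. Cd5l, at 253, 193 and 137 CPM without Cre and 219, 24.4 and 213 CPM with the Cre positive label, was 8.73-fold below that median in replicate 2.

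Csf1r followed with 144, 129 and 166 CPM without Cre and 192, 32.1 and 106 CPM with the Cre positive label. Adgre1 measured 126, 99.0 and 93.3 CPM and 117, 32.0 and 51.0 CPM in the same order, Cd68 76.6, 81.3 and 149 CPM and 194, 52.3 and 152 CPM. Clec4f measured 102, 60.5 and 39.0 CPM and 93.2, 25.8 and 128 CPM. In each of these 4 genes the low library was Cre positive replicate 2, by 2.85-fold to 4.48-fold against the median of the others.

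The remaining genes did not share that low library. Mrc1 measured 507, 351 and 249 CPM without Cre and 313, 326 and 320 CPM with the Cre positive label, a range of 1.04-fold within the latter. Cx3cr1 measured 16.4, 5.74 and 18.01 CPM without Cre and 48.3, 35.7 and 15.5 CPM with the Cre positive label, and replicate 2 was the second highest of the 6. Its log2 fold change was 1.31 (SE 0.65, edgeR unadjusted p = 0.0783, adjusted p = 0.820), opposite in sign to the macrophage sort. The test of that difference, the interaction of genotype and sort over 12 libraries, gave -3.53 (SE 1.06, edgeR unadjusted p = 0.00320, adjusted p = 0.408), with 0 of the 10 genes and 14 of 20128 genes (0.0696%) passing. It was the single member at an unadjusted p under 0.05 in that fit, on the side where 5.47% of genes stood. Cx3cr1 passed it without macrophage Cre positive replicate 3 (edgeR adjusted p = 0.0432), in a fit that called 104 of 23695 genes. The library left out had the highest Cx3cr1 of its group.

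The 13 macrophage markers are a list that holds all of the 10 genes except Mrc1, so that their sum partly repeats the values above. They summed to 551 CPM in replicate 2, with Fcgr1 and Vsig4 at 0, against 1202 to 1362 CPM without Cre and 1764 and 2053 CPM in the other 2 labelled Cre positive. Replicate 2 differed in transcripts of neutrophils too. Of 7 neutrophil markers 5 were highest in it, a count not made over all genes. The 7 took 0.368% of its reads against 0.0800% to 0.204% elsewhere in this sort. Among the granule genes, S100a8 stood at 663 CPM against 131 to 221 CPM and Ngp at 1130 CPM against 300.2 to 675 CPM. Their part in the result was not tested. Without replicate 2 the median log2 fold change of the 10 genes was 0.64, with 8 of 10 having the higher fitted level and 0 passing.

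Partners and other macrophage genes lay on both sides in the HSC sort. Of 11 partner genes tested, 7 had the higher and 4 the lower fitted level with the Cre positive label (median log2 fold change 0.30), 2 of them higher at an unadjusted p under 0.05, and 0 passed. Fcer1g measured 95.5, 90.8 and 108 CPM without Cre and 137, 141 and 215 CPM with the label, without overlap (edgeR unadjusted p = 0.0196, adjusted p = 0.689). Of the 32 further macrophage genes 17 had the higher and 15 the lower fitted level (median 0.18), 3 on each side at an unadjusted p under 0.05, and 0 passed. Spic, which followed Csf1r in the macrophage sort, lay lower without overlap here, at 26.3, 26.5 and 27.6 CPM against 48.6, 49.7 and 66.8 CPM (edgeR adjusted p = 0.689). The lysozyme gene Lyz2, which neutrophils also express, lay higher without overlap, at 985, 1105 and 737 CPM against 376, 470 and 718 CPM (edgeR adjusted p = 0.689), and was highest in replicate 2.

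Siglec1 was scarce in the HSC sort, where CD169 was not part of the gate. There it measured 4.43, 3.17 and 0.520 CPM without Cre and 8.59, 0.897 and 0.218 CPM with the Cre positive label, from 16 to 460 reads. Its log2 fold change was 0.26 (SE 1.90), and its sign turned without Cre positive replicate 1 (-2.28). Levels were not compared between the tables, which were counted separately, but the ratio of Siglec1 to Adgre1 within a library does not depend on the library size. It was 0.818, 0.286 and 0.314 in Cre negative and 0.269, 1.70 and 0.956 in Cre positive macrophage libraries. In the HSC sort it was 0.0351, 0.0320 and 0.00557 without Cre and 0.0733, 0.0280 and 0.00428 with the Cre positive label. The 2 sorts did not overlap in this ratio, which uses the gene behind the gate of 1 of them and is given as a description.

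**Figure D5:**
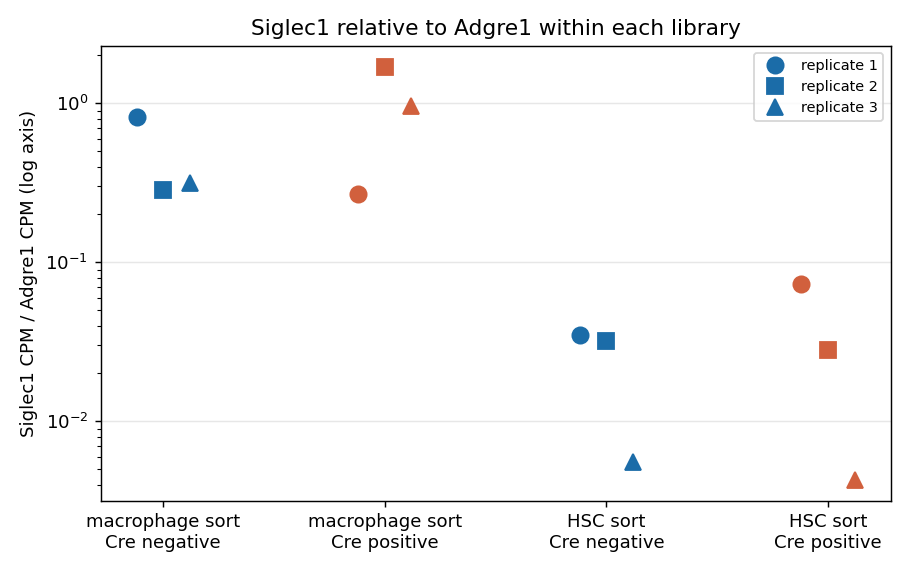
Ratio of Siglec1 CPM to Adgre1 CPM in each library on a log axis, with 1 symbol per replicate number and the genotype in colour. All 6 macrophage libraries lie between 0.269 and 1.70 and all 6 HSC libraries between 0.00428 and 0.0733.

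The order of the mean levels was also different in the HSC sort. This and the ratio below are given as a description, since the tables were counted separately. Neighbours in the order overlapped throughout in Cre negative macrophage libraries. Per kilobase of exon, Cd5l (95.4 ± 28.5) and Cd68 (81.4 ± 32.2) had the highest means in Cre negative HSC libraries and overlapped, followed by Mrc1 (57.9 ± 20.4), which overlapped Cd68 and whose lowest library (39.1) was just above the highest of the next gene, Adgre1 (39.0; mean 32.8 ± 5.46). Clec4f (27.2 ± 13.0) and Csf1r (25.4 ± 3.16) overlapped, Timd4 (12.8 ± 4.24) lay below all values of Csf1r, and Siglec1 (0.379 ± 0.280; SD, n = 3) was below every other gene in all 3 libraries. The ratio of Cd5l to Csf1r, both genes of the macrophage, was 1.76, 1.49 and 0.825 in HSCs without Cre and 1.14, 0.761 and 2.01 with the Cre positive label. In the macrophage sort it was 0.0675, 0.931 and 0.391 in Cre negative and 0.321, 0.133 and 0.114 in Cre positive libraries. Of these ratios only that of macrophage Cre negative replicate 2 (0.931) reached the range of the HSC libraries.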

How the data were processed

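Each sort has a deposited table of gene counts, unscaled whole numbers for 6 libraries. For HSCs the submitters' processing notes name STAR 2.7.6a, featureCounts, Subread 2.0.1 and GRCm38 (mm10). For macrophages these notes name mm10 alone, and what aligned and counted the reads was not given in the sources used here; nor was either table's strand or multi-mapping setting. Per the labels' protocols, 2000 HSCs or 1000 to 3000 macrophages were sorted per library and amplified with the SMART-Seq v4 kit.

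Each table was analysed alone in R 4.3.3 with edgeR 4.0.16: filterByExpr, TMM, a robust quasi-likelihood fit of Cre positive minus Cre negative, and Benjamini-Hochberg adjusted p under 0.05 over all genes as the threshold. The SE is the log2 fold change over the square root of F. The interaction fit took all 12 libraries over the 32210 shared identifiers. Scripts were tested on simulated data. Alternatives were DESeq2 1.42.0, other scalings, no filter, thinned depth, a replicate block and leaving out each library. Text names all 10 members, the 3 genes with the smallest p of each described list (1 is not reported here), and the 5 genes most like Adgre1 and Csf1r; C1qb, Spi1, Alb, Fcer1g, Csf1, Il34, S100a8, Ngp, Vsig4, Lyz2, the genes of the closing section and the ratios were chosen after their values were seen. The members and lists were chosen with earlier results of these data known. Replicates of a group differed beyond sampling noise (chi-square over its degrees of freedom, 51.2 to 832 for each pair), and each counts as 1 sample. Columns without a sample numbered 0.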

Additional observations from a re-analysis of the deposited data

How the results depend on the processing

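In macrophages the direction of all 10 genes was the same under all 12 alternatives, and the calls that appeared were those of Adgre1 and Cx3cr1 given above. Genes called over the whole macrophage table numbered 0 in the reported fit, with 874 lower and 91 higher at an unadjusted p under 0.05, and 54 with DESeq2, 21 without the filter, 13 with the replicate block and 1 to 34 when a library was left out. Over all genes the median log2 difference was -0.16 with TMM, -0.00 on upper quartiles and 0.05 on unscaled totals, where the 10 genes had -1.13, -0.98 and -0.86. In HSCs 0 genes were called in the reported fit, with 554 lower and 338 higher at an unadjusted p under 0.05, and 129 with DESeq2. The interaction called 14 genes, 8 on library totals, 96 with the replicate block and 6 to 210 when a library was left out.

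HSC directions turned in 16 of 110 values, none of them called. With the replicate block they turned in Siglec1 (-0.74), Timd4 (-1.23) and Fcgr1 (-1.84), and without the filter in Timd4 (-0.0029). Leaving out 1 library gave log2 fold changes of -1.08 to 0.024 in Csf1r, -0.0079 to 0.75 in Cd68, -2.28 to 0.81 in Siglec1, -0.88 to 0.58 in Timd4, -0.43 to 0.086 in Mrc1, -0.18 to 0.72 in Clec4f, -0.71 to 0.15 in Cd5l and -2.07 to 0.94 in Fcgr1. The interaction turned with the replicate block in Siglec1 (0.33), Timd4 (0.50) and Fcgr1 (1.43), and leaving out 1 library gave -1.22 to 1.87 in Siglec1 and -1.63 to 1.38 in Fcgr1. The cause was not tested.

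Samples with the same replicate number correlated in their deviations from the group means by -0.016 to 0.027 in macrophages and -0.033 to 0.012 in HSCs, so the numbers were not taken to pair libraries. Depth limits Clec4f, at 0 in 1 Cre positive macrophage library with a floor of 0.513 CPM. It also limits other named genes, such as Alas2, Col3a1 and Adgre4, which lay under the floor of at least 1 Cre positive macrophage library. The number of libraries limits every test.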

Other observations

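With all 6 libraries the cell type markers of the macrophage sort gave 0 calls. The 13 macrophage markers all had the lower fitted level in Cre positive libraries (median log2 fold change -1.16, and -1.61 without Cre negative replicate 1). That list holds all of the 10 genes except Mrc1, so it largely repeats their result, and adds only Vsig4, C1qa, C1qb and C1qc. Hepatoblast and stellate markers were high in Cre negative replicate 1. Fitted levels in Cre positive libraries were lower in 7 of 9 hepatoblast markers (-1.45), but without that library they were higher in 6 of 8 (median 1.02, 0 passing). Their share of reads was 0.397%, 0.0438% and 0.0437% in Cre negative and 0.0779%, 0.0424% and 0.0595% in Cre positive libraries, so the lower fitted level rests on replicate 1. Stellate markers were lower in 8 of 8 with all libraries (-2.76) and in 8 of 8 without it (-1.93). Reads were present for 5, 6 and 6 of these 8 markers in the Cre positive libraries and for all 8 in each deeper Cre negative library, so depth limits the stellate list. The collagen gene Col3a1 measured 629, 52.3 and 80.4 CPM in Cre negative and 0.707, 34.5 and 8.89 CPM in Cre positive libraries, with a log2 fold change of -4.09 (SE 1.59), and -2.13 (SE 1.16) without replicate 1. Erythroid markers were lower in 7 of 8 tested (-2.55, and -3.98 without replicate 1), with the heme synthesis gene Alas2 at 25.5 ± 16.2 and 0.574 ± 0.841 CPM (SD, n = 3 each, Cre negative first). Alas2 stood at 0, 0.183 and 1.54 CPM in the Cre positive libraries, whose floors were 1.06, 0.548 and 0.513 CPM. Reads were present for 1, 4 and 6 of the 9 erythroid markers there and for 7, 9 and 9 in the deeper Cre negative libraries, so depth limits this list. The lists of monocyte and dendritic cells (median 0.06, 5 tested, and -0.29 without replicate 1), neutrophils (0.80, 6 tested, and 0.62) and HSCs (0.35, 7 tested, and 0.34) had members on both sides. Among endothelial markers Tek, the angiopoietin receptor gene, lay higher in every Cre positive library, at 535, 707 and 559 CPM against 504, 435 and 329 CPM (edgeR adjusted p = 1.00).

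Vsig4, a complement receptor of Kupffer cells, was scarce in both sorts, at 0 to 11.2 CPM in macrophage libraries, with its highest value in Cre negative replicate 1, the library that was lowest in Adgre1.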
